A study of Drosophila melanogaster with 185 samples.

Results

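The vacuolar proton pump genes of Drosophila melanogaster were taken as all genes whose symbol in the deposited counts starts with Vha. There were 33 of them among 15682 genes. Of these, 13 encode subunits of the V1 sector, 18 subunits of the V0 sector and 2 accessory proteins, by the subunit each is named for in FlyBase nomenclature. The study collected neurons of 7 mushroom body classes from trained and control flies, together with whole flies and whole brains, and asked how the classes differ in gene expression and what aversive long-term memory changes. Neurons were drawn into a patch pipette from living flies shortly after training ended, picked by position and green fluorescence, and their RNA was amplified by the SMARTer protocol. Expression is given as CPM, the reads of a gene scaled to the same total in every library.

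All flies were in a w1118 background, and those with a driver came from crosses of UAS-eGFP females with males of a GAL4 line. Trained flies received 8 spaced blocks of an odor paired with electric shock, and controls received the shock followed by the odor. The trained and control groups of output neurons were DAL (G0431-GAL4, 5 trained and 5 control libraries), V2 (R71D08-GAL4, 5 and 5), V3 (CG0239-GAL4, 5 and 5), 3-86 (3-86-GAL4, 4 and 6) and R27G01 (R27G01-GAL4, 4 and 4). The Kenyon cells, the intrinsic neurons of the mushroom body, were gamma (NP1131-GAL4, 6 and 6) and alpha/beta (c739-GAL4, 6 and 6). A library held 4 cells, except 12 cells in V2 and more than 100 Kenyon cells. Whole flies carried the reporter and 1 of the same 7 drivers (24 libraries, 3 or 4 each) or the reporter background alone (3 libraries), and the 2 brains had the reporter background. The flies were matched for age, per the series' design, and the age itself and the sex are not given in the sources used here. A GAL4 line can mark more cells than the class it is used for, so the class rests on the position of the harvested cell. The labels do not say whether replicate libraries came from separate flies, so a p-value here reflects only how libraries vary, which may be technical.

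The vacuolar proton pump, or V-ATPase, is a rotary machine that uses ATP to move protons into endosomes, lysosomes and synaptic vesicles, and out of some epithelial cells through the plasma membrane. Its V1 sector lies in the cytosol and splits ATP, and its V0 sector lies in the membrane and carries the protons. In neurons the proton gradient drives the loading of neurotransmitter into synaptic vesicles, and in the fly's Malpighian tubule the pump powers fluid secretion. Several subunits are encoded by more than 1 gene in flies, and the paralogs are used in different tissues.

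Neuron libraries held 1689680 to 22904425 counted reads, whole flies 931967 to 16213198 and the brains 1333577 and 2272595. The summed level of 6 pan-neuronal markers was 1654 to 15195 CPM in control neurons, against 93.9 to 400 CPM in whole flies of the 7 drivers, and that of 6 Kenyon cell markers was 13074 to 23531 CPM in control Kenyon cells, against 549.6 to 3640 CPM in control output neurons. Markers of other tissues were not absent from neurons: 6 fat body markers, which include the yolk proteins, summed to 11.3 to 1492 CPM in control Kenyon cells and to 2586 to 69235 CPM in control output neurons, against 6015 to 84525 CPM in whole flies. Midgut markers reached at most 487 CPM in control neurons, against 9263 to 47932 CPM in driver whole flies and 5225 to 6235 CPM in reporter whole flies. Photoreceptor markers summed to 449.6 to 16204 CPM in control neurons, against 1585 to 8381 CPM in whole flies, and reached 47971 CPM in trained V3 neurons. Hemocyte markers had a median of 86.9 CPM and a highest value of 1867 CPM in control neurons. They reached at most 21.6 CPM in driver whole flies and 73.75 CPM in reporter whole flies. In 3-86, run 2 of trained library 2 matched run 1 of control library 3 within sampling noise, while the 2 runs of each of these libraries differed from each other; without both, the counts of pump genes called in every comparison below were the same, except 8 in place of 9 lower in Kenyon cells, Vha100-2 counted in both, where VhaM9.7-a lost its call at -0.46.

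Neurons and whole flies used different main genes for some subunits of the pump, namely A, a and e. VhaM9.7-a, Vha68-1 and Vha100-1 were higher in every control neuron library than in any library of driver whole flies, and Vha68-2, Vha100-2 and Vha100-5 were lower in every one. Of the 22 pump genes tested among 10549 genes, Vha100-4, Vha100-5 and Vha36-3 passed the filter on low counts only through whole flies, where they are high, so they had to differ and no test of them is given. The remaining 19 passed in neurons alone and in whole flies alone, as 8017 of all genes did. Complete separation was seen upward in 4.27% and downward in 1.63% of those genes, against 3.41% and 3.3% of all genes tested, and in 3 and 2 of the 19 pump genes. In edgeR (quasi-likelihood F test, Benjamini-Hochberg adjusted over all genes), 6 of the 19 pump genes were higher in neurons, where 34% of those 8017 genes and 30.2% of all genes tested were. Lower in neurons were 9 of the 19, where 31.8% and 34.3% were. With DESeq2's size factors in place of TMM scaling, 3 of the 22 were higher and 17 lower, those 3 low-count genes among the lower. Of all 10549 genes, 2159 were higher and 5118 lower under that scaling. The median log2 fold change over all genes was -0.90 in place of 0.01. Relative to that median the fold changes hardly moved, with Vha44 at 0.44 in place of 0.45. In bulk samples, fewer cells of a type and less RNA per cell cannot be told apart.

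**Figure D1:**
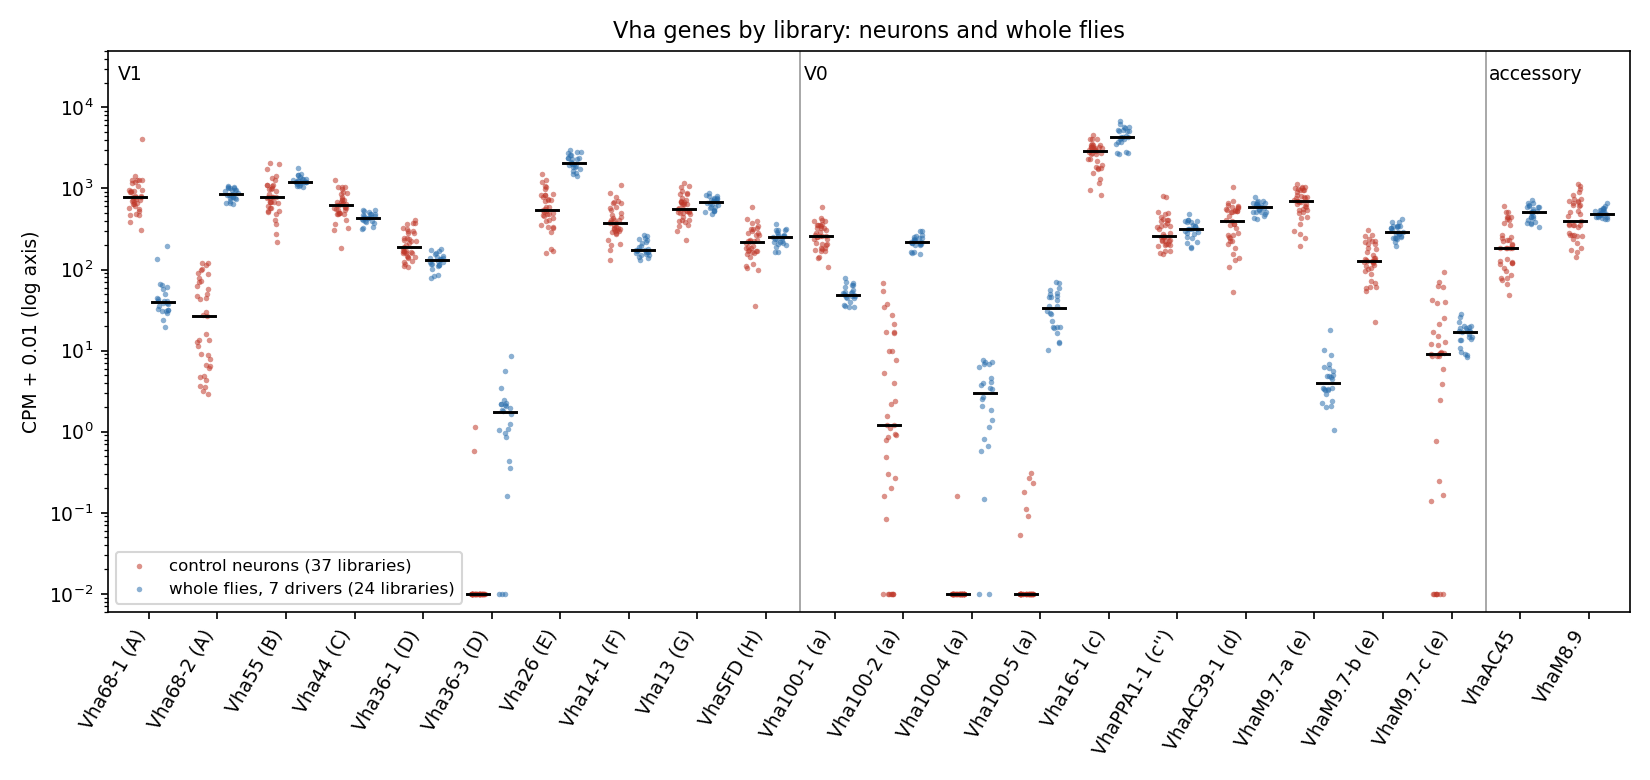
CPM of the 22 tested pump genes in each control neuron library (red, 37 libraries) and each whole-fly library of the 7 drivers (blue, 24 libraries), on a log axis after adding 0.01, with the median as a bar and the subunit in parentheses. Vha68-1, Vha100-1 and VhaM9.7-a lie wholly above the flies, and Vha68-2, Vha100-2 and Vha100-5 wholly below them, of which Vha100-5 passed the filter on low counts only through the flies.

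Subunit A, the catalytic subunit that splits ATP, showed the exchange most plainly. Vha68-1 ranged over 310, 784 and 4095 CPM (lowest, median and highest of 37 libraries) in control neurons, against 19.6, 39.6 and 194 CPM (of 24) in whole flies. Its log2 fold change was 4.06 ± 0.20 (SE), with an adjusted p of 6.57e-26. Vha68-2 took 2.94, 27.02 and 122 CPM in control neurons, against 649, 843 and 1071 CPM in whole flies. That is a log2 fold change of -5.04 ± 0.22, with an adjusted p of 9.96e-29, and the ranges did not overlap. The remaining gene for subunit A, Vha68-3, had 39 reads over all 72 neuron libraries and 18 over all 27 whole-fly libraries and was not tested.

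Among the other V1 subunits, the ATP-binding but non-catalytic subunit B has a single gene, Vha55. It had 221, 777 and 2055 CPM in control neurons, against 1051, 1207 and 1789 CPM in whole flies, a log2 fold change of -0.65 ± 0.13 (adjusted p = 1.61e-05). Subunits E and G form the outer stalks that hold the sectors together. Vha26, for E, had 161, 546 and 1502 CPM in neurons, against 1411, 2079 and 2947 CPM in whole flies, so that 36 of 37 neuron libraries lay below every fly library. It fell by 1.91 ± 0.13 on the log2 scale (adjusted p = 2.28e-20). Vha13, for G, had 235, 555 and 1167 CPM in neurons, against 490, 674 and 874 CPM in whole flies, with a log2 fold change of -0.24 ± 0.10 (adjusted p = 0.0262). The fly libraries all fell inside the range of the neurons for Vha13.

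The central stalk that turns inside V1 is made of subunits D and F, and subunit C bridges V1 and V0 and leaves when the pump is taken apart. Vha14-1, for F, had 130, 379 and 1114 CPM in neurons, against 131, 175 and 265 CPM in whole flies, and 32 of 37 neuron libraries exceeded every fly library; its log2 fold change was 1.12 ± 0.12 (adjusted p = 4.22e-12), and 0.20 with no call under DESeq2's size factors. Vha36-1, for D, had 107, 191 and 404 CPM in neurons, against 78.7, 130 and 177 CPM in whole flies, with a log2 fold change of 0.66 ± 0.12 (adjusted p = 2.42e-06) that turned to -0.26 under those size factors. Vha44, for C, had 187, 625.3 and 1273 CPM in neurons, against 321, 432 and 543 CPM in whole flies, with 0.46 ± 0.12 (adjusted p = 4e-04) turning to -0.46. The sign of Vha36-1 and Vha44 thus depends on the scaling, and so does the call of Vha14-1. VhaSFD, for subunit H, which restrains ATP splitting in detached V1, had 35.2, 219 and 598 CPM in neurons, against 163, 252 and 364 CPM in whole flies, and did not pass (log2 fold change -0.22 ± 0.13, adjusted p = 0.149). Vha44 shares exon sequence with Hmgs on the opposite strand in the BDGP6 annotation, and since no strand setting is stated their reads cannot be told apart.

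Subunit a carries the channels through which protons enter and leave the ring, and its isoform sets where in the cell the pump goes. Vha100-1, the isoform known from fly synapses, had 107, 260 and 584 CPM in control neurons, against 34.0, 49.2 and 77.7 CPM in whole flies. Its log2 fold change was 2.35 ± 0.12 (adjusted p = 4.57e-25). It overlaps an exon of Alg13 on the opposite strand in BDGP6. Vha100-2 had 0, 1.19 and 67.7 CPM in neurons, against 156, 218 and 301 CPM in whole flies, and fell by 5.81 ± 0.48 on the log2 scale (adjusted p = 1.26e-15).

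The remaining isoforms of subunit a were found at very low levels in neurons. Vha100-5 had 11 reads in all control neurons, in 7 of 37 libraries, against 10.1, 33.2 and 70.7 CPM in whole flies. Its pooled level in flies was 1130 times that in neurons (95% interval 631 to 2265, counting error only). Vha100-4 had 1 read in control neurons, against 343 reads in 22 of 24 whole-fly libraries, a pooled ratio of flies over neurons of 991 with a counting interval of 177 to 39265. Vha100-3 had 18 reads over all neurons and 3 over all whole flies and was not tested.

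The rest of V0 is a rotating ring of proteolipids, c and c″, with subunit d on its inner face and the small subunit e beside it. Vha16-1, for c, had 828, 2867 and 4568 CPM in neurons, against 2661, 4307 and 6801 CPM in whole flies, and was lower by -0.86 ± 0.11 on the log2 scale (adjusted p = 4.46e-10). VhaPPA1-1, for c″, had 156, 256 and 800 CPM in neurons, against 186, 315 and 488 CPM in whole flies, and did not pass (-0.08 ± 0.13, adjusted p = 0.626). VhaAC39-1, for d, had 52.7, 394 and 1036 CPM in neurons, against 425, 595 and 796 CPM in whole flies, with -0.66 ± 0.14 (adjusted p = 3.38e-05). With DESeq2's size factors Vha16-1 stood at -1.78, VhaPPA1-1 at -0.99, which then passed, and VhaAC39-1 at -1.58.

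Subunit e gave the widest contrast of all pump genes that rose. VhaM9.7-a had 196, 697 and 1133 CPM in control neurons, against 1.05, 3.95 and 18.0 CPM in whole flies. Its log2 fold change was 7.01 ± 0.27, with an adjusted p of 4.28e-31. VhaM9.7-b had 22.7, 128 and 306 CPM in neurons, against 195, 289 and 424 CPM in whole flies (-1.20 ± 0.14, adjusted p = 7.33e-11). VhaM9.7-c had 0, 9.06 and 93.4 CPM in neurons, against 8.42, 17.2 and 28.2 CPM in whole flies, and did not pass (adjusted p = 0.823).

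The accessory protein VhaAC45, which guides the pump through the secretory pathway, had 49.0, 186 and 614 CPM in neurons, against 338, 512 and 722 CPM in whole flies, a log2 fold change of -1.28 ± 0.15 (adjusted p = 3.14e-11). VhaM8.9, named ATP6AP2 in the current RefSeq table after its human counterpart, had 142, 401 and 1137 CPM in neurons, against 420, 490 and 654 CPM in whole flies, and did not pass (-0.21 ± 0.12, adjusted p = 0.123). Its sign and that of VhaSFD and VhaPPA1-1 stayed negative under DESeq2's size factors, where all 3 passed.

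**Figure D2:**
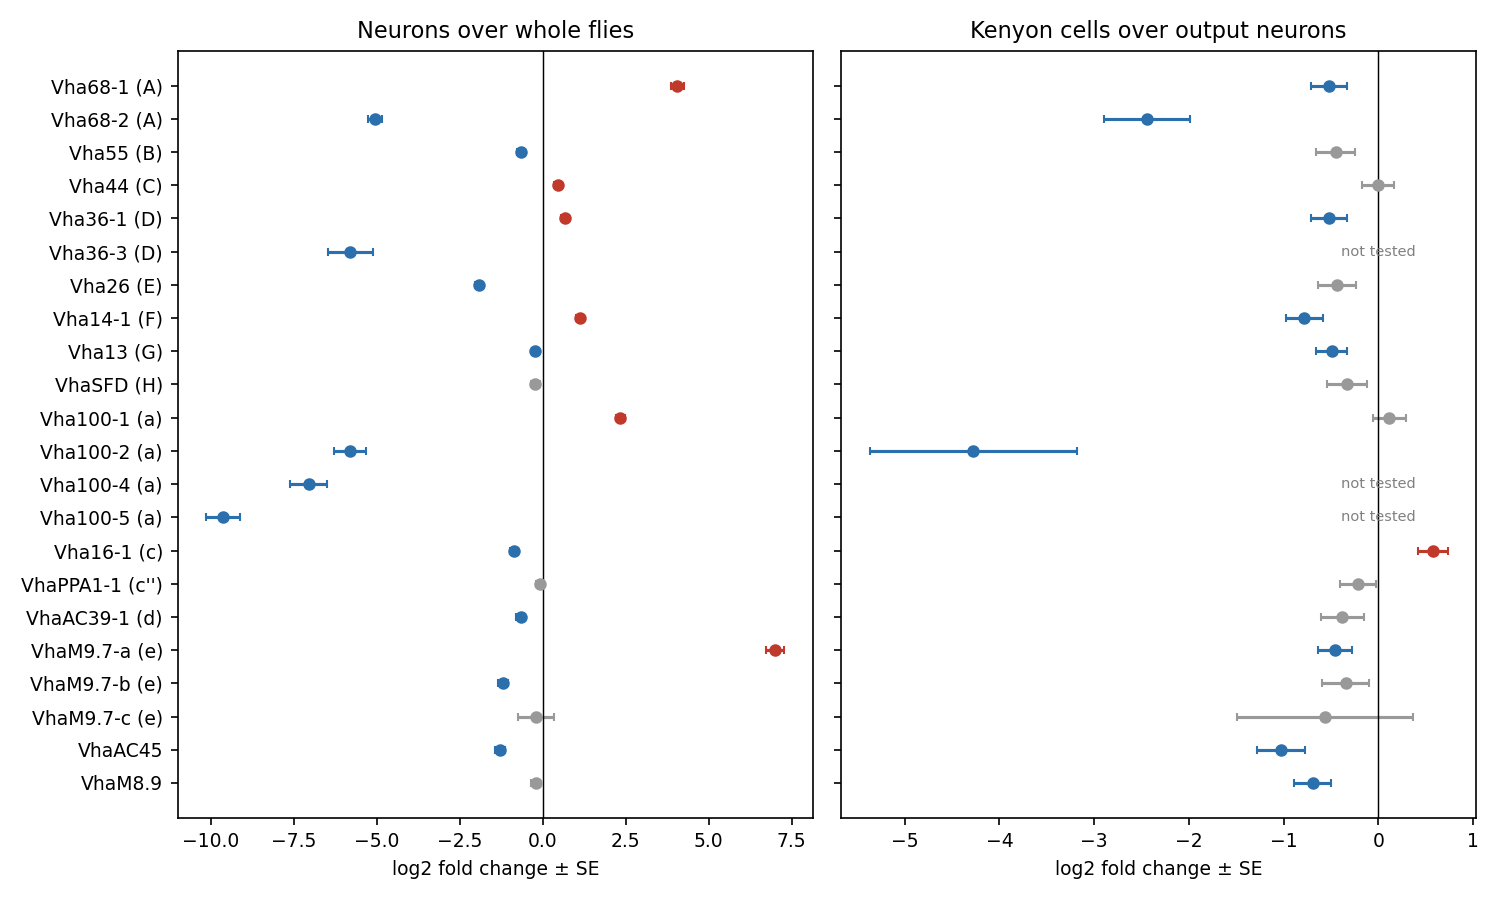
Log2 fold change with its standard error for each tested pump gene, in neurons over driver whole flies (left) and in Kenyon cells over output neurons (right), from edgeR with TMM scaling. Red and blue mark genes called higher and lower, and grey marks genes not called. Vha100-4, Vha100-5 and Vha36-3 (left) and Vha100-2 (right) passed the filter on low counts only in the group where they are high, and under DESeq2's size factors Vha36-1 and Vha44 turn to lower in the left panel.

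The other members not tested in that comparison were at or near 0. Vha16-3 and VhaM9.7-d had no read in any library, and Vha16-2, Vha16-4, Vha16-5, Vha14-2, Vha36-2, VhaAC39-2 and VhaPPA1-2 did not exceed 2.44 CPM in any library. Vha36-3 had 15 reads in control neurons and 200 in driver whole flies, a pooled ratio of flies over neurons of 38.5 (95% interval 22.8 to 70.1, counting error only). It was also found in 4 trained libraries of DAL and V2, at 14.6 and 4.65 CPM in DAL and 7.88 and 5.81 CPM in V2, where the other trained libraries of these classes and all their controls were at 0.

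Set within each subunit, the exchange of paralogs concerned subunits A, a and e. This measure, the share of a subunit's reads held by 1 gene, does not depend on the scaling between libraries. Vha68-1 held 95.2% ± 5.2 of the reads of subunit A in control neurons (SD, n = 37) and 5.44% ± 3.23 in driver whole flies (n = 24). Vha100-1 held 96.5% ± 7.23 of subunit a in neurons and 16.6% ± 4.14 in whole flies. VhaM9.7-a held 80.2% ± 9.84 of subunit e in neurons and 1.58% ± 1.22 in whole flies. A 2-sided permutation test over libraries gave 2e-05 for each, the smallest value that 100000 resamples allow, and 4e-05 after Benjamini-Hochberg adjustment over 8 shares. For each of the 8, the gene tested was the 1 with the highest mean share in these same control neurons. It was thus picked from values that the test also used, so these p-values are not independent support. The shuffle also took libraries as exchangeable, without regard to class or genotype.

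For the remaining 5 subunits with paralogs, 1 gene held nearly all reads in both. Vha36-1 held 99.97% of subunit D in neurons and 98.5% in whole flies, a difference of 1.42 points that passed (adjusted p = 4e-05, permutation test). Vha14-1, Vha16-1, VhaPPA1-1 and VhaAC39-1 held at least 99.99% on average in both groups, except VhaAC39-1 at 99.986% in whole flies, with adjusted p of 0.74, 0.197, 0.349 and 0.179 by the permutation test. Their differences were at most 0.014 points.

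The exchange held in each of the 7 classes. The class mean of the share of Vha68-1 in control neurons was lowest in 3-86, at 89.3%, and highest in gamma Kenyon cells, at 98.8%, against driver means of 3.08% to 8.06% in whole flies. That of Vha100-1 was lowest in R27G01, at 84.5%, and highest in alpha/beta Kenyon cells, at 99.9%, against 12.4% to 22.6% in whole flies. The class mean of VhaM9.7-a ran between 72.2% in R27G01 and 91.1% in V2, against 1.03% to 2.29% in whole flies.

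Low shares were rare for subunits A and a and more common for e. Over all 72 neuron libraries, Vha68-1 held under 80% of subunit A in 3 and Vha100-1 under 80% of subunit a in 4, all from classes with 4 cells per library. VhaM9.7-a held under 80% of subunit e in 20, of which 7 were Kenyon cell libraries, and under 50% in 1. In R27G01 trained library 4, Vha68-2 held 55.5% of the reads of subunit A, with 1045 reads, and Vha68-1 held 44.2%, with 832 reads. Fat body markers summed to 130749 CPM in that library, above every control neuron and whole-fly library, and pan-neuronal markers to 1800 CPM. In 3-86 control library 5, where Vha68-1 held 75.9% and VhaM9.7-a 46.3%, fat body markers stood at 69235 CPM and pan-neuronal markers at 1654 CPM. In 3-86 trained library 4, where Vha68-1 held 66.7% and Vha100-1 77.4%, they stood at 40405 and 1610 CPM. In each of these 3 libraries 2 of the 3 shares were low: VhaM9.7-a held 53.3% in R27G01 trained library 4, where Vha100-1 held 96.3%, Vha100-1 held 98.9% in 3-86 control library 5, and VhaM9.7-a held 98.5% in 3-86 trained library 4. Vha100-1 was also low at 67.2% in R27G01 control library 1, at 72.4% in R27G01 control library 3 and at 77.2% in V3 trained library 2, where fat body markers summed to 47352, 20742 and 16694 CPM. Other libraries with high fat body sums went both ways. At 68657 CPM, R27G01 control library 2 had 96.1%, 100% and 54.4% for A, a and e. R27G01 trained library 1, at 64370 CPM, had 92.6%, 83.3% and 82.4%, and trained library 2, at 53353 CPM, had 88.0%, 99.8% and 91.3%. In the 7 Kenyon cell libraries with a low share of VhaM9.7-a, fat body markers summed to only 39.8 to 1192 CPM. The part of other tissues' RNA in these shares was not tested.

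**Figure D3:**
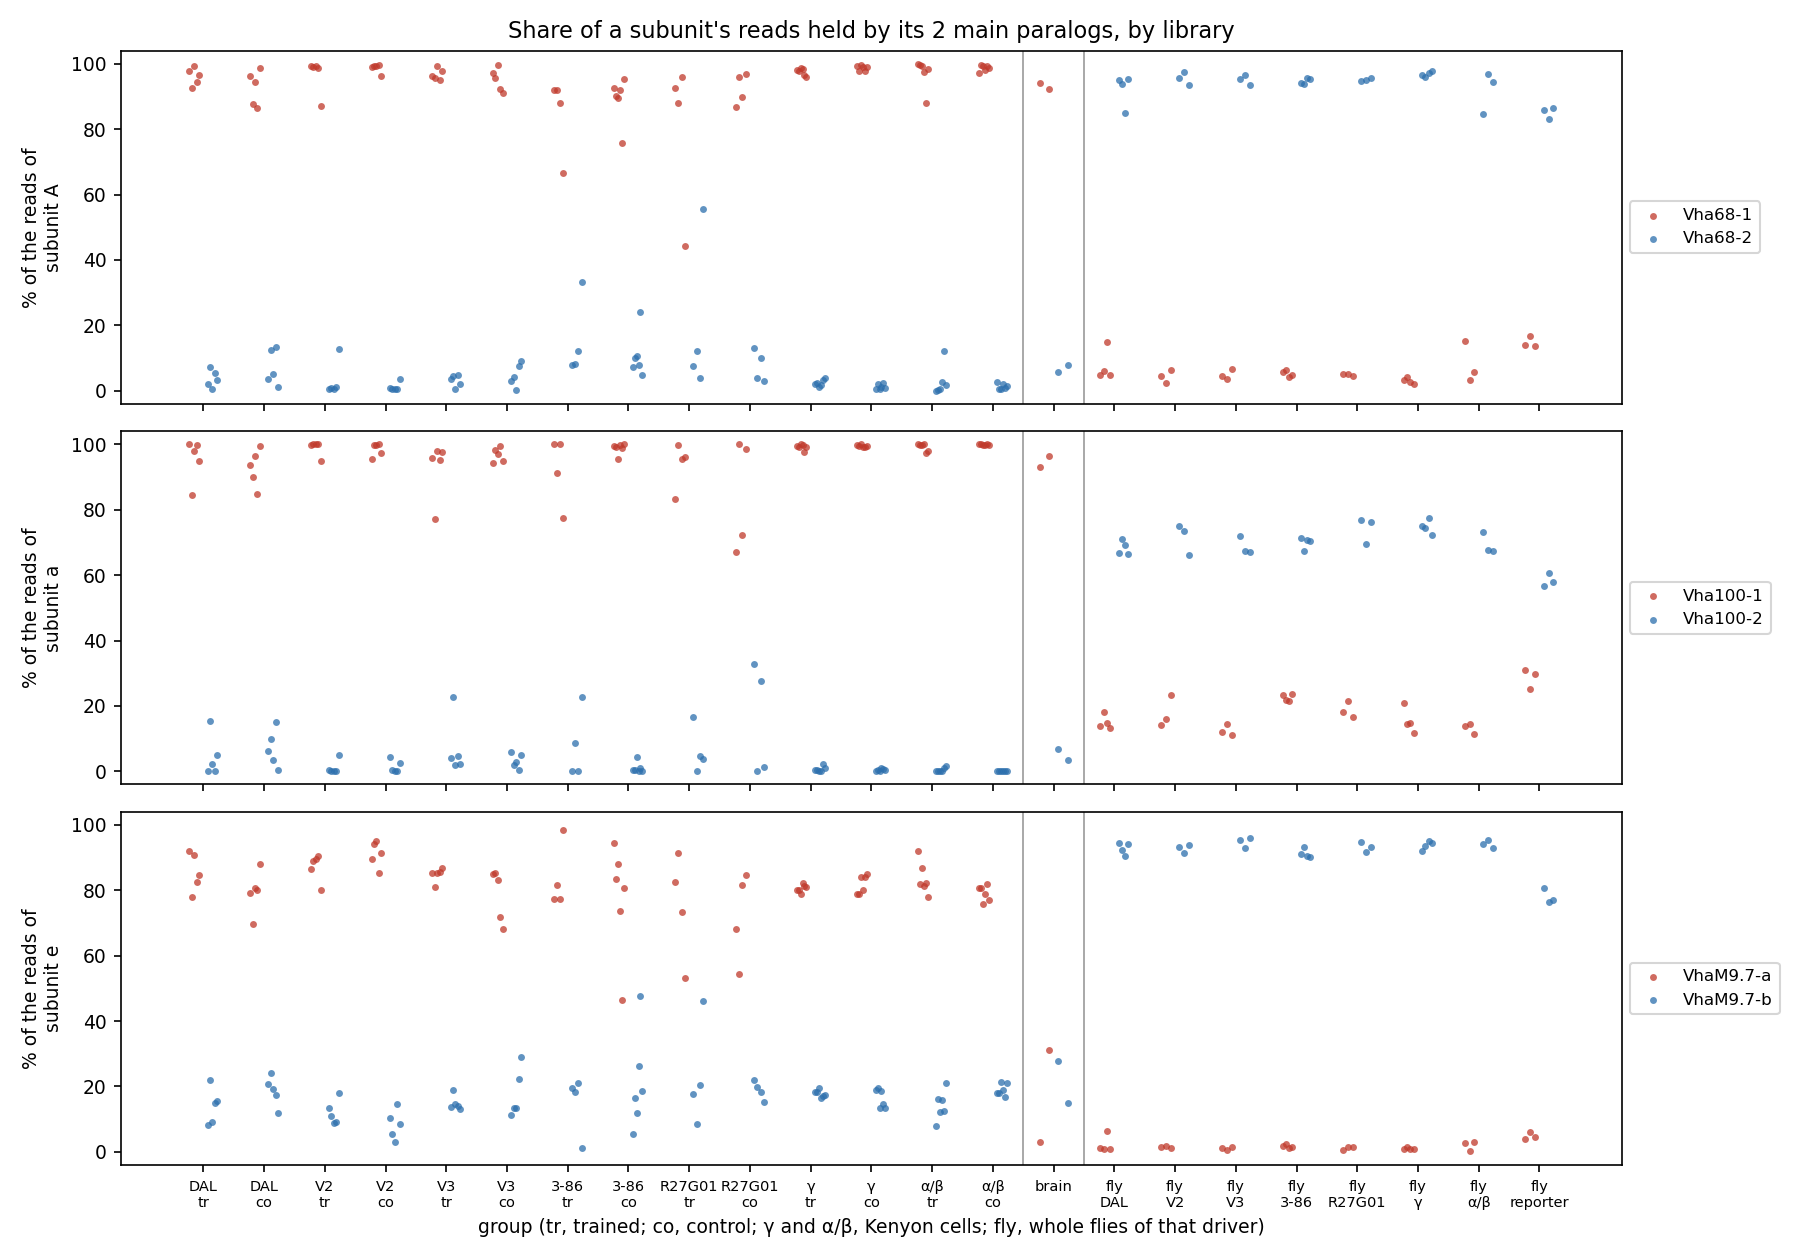
Share of the reads of subunits A, a and e held by their 2 main paralogs in each library, in percent, for trained and control neurons of each class, the 2 brains and whole flies of each genotype. Vha68-1, Vha100-1 and VhaM9.7-a (red) hold most reads in nearly all neuron libraries, and Vha68-2, Vha100-2 and VhaM9.7-b (blue) in all whole flies.

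Compared per kilobase of exon in the BDGP6 annotation, VhaM9.7-a stood highest among the pump genes in control neurons, at 976 ± 350 CPM per kilobase (SD, n = 37), where driver whole flies had 6.94 ± 4.97 (n = 24). The proteolipid gene Vha16-1 followed at 880 ± 296 in neurons, within the spread of VhaM9.7-a, and stood first in whole flies at 1460 ± 370. The length used is that of all annotated exons of a gene together, 710 bp for VhaM9.7-a and 3077 bp for Vha16-1. The order of the genes depends on that choice. Vha14-1 and Vha13 came next in neurons at 659 ± 318 and 651 ± 233, within each other's spread. Vha68-1 at 339 ± 227 and Vha55 at 312 ± 155, whose products pair in the ATP-splitting head, overlapped in spread in neurons. The corresponding pair in whole flies was Vha68-2 at 312 ± 48.3 and Vha55 at 452 ± 59.9. These spreads are between libraries, and genes were not tested against each other within libraries. Vha100-1 was the lowest of the main V0 genes in neurons, at 83.5 ± 30.2 CPM per kilobase.

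The pump genes as a whole were not more abundant in neurons. Their summed level was 9891 ± 2975 CPM in control neurons (SD, n = 37), against 13048 ± 2108 CPM in driver whole flies (n = 24). The V1 genes summed to 4591 ± 1731 CPM in neurons, against 6007 ± 835 CPM in flies, and the V0 genes to 4571 ± 1231 CPM, against 6027 ± 1271 CPM. Abundant genes weigh most in these sums. In pooled reads, Vha26 of V1 had 644 CPM in control neurons and 2100 CPM in driver flies, and Vha16-1 of V0 had 2845 and 4288 CPM. Genes of both sectors, such as Vha68-1 and VhaM9.7-a, were higher in neurons, so the lower sums do not hold gene by gene. The coefficient of variation between libraries was larger in neurons for 15 of 17 pump genes, such as Vha55 at 49.5% in neurons and 13.2% in whole flies. It was smaller for Vha68-1 and for VhaM9.7-a, which stood at 35.9% in neurons and 71.6% in whole flies. Libraries of neurons varied more in general. The common coefficient of variation that edgeR fitted within groups over all genes was 1.274 in control neurons and 0.396 in whole flies.

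Genes that act with the pump were counted alongside. Of 11 genes for its assembly and regulation, 10 were tested, and 7 were higher and none lower in neurons, with a median log2 fold change of 1.54, where the 19 pump genes that passed the filter in both groups had -0.22 and all genes passing in both 0.05. The 4 with the smallest p all rose: mtd, which has a TLDc domain, at 4.27, sky, a synaptic GTPase regulator, at 2.99, Mitf, the transcription factor that activates pump and lysosome genes in flies, at 2.19, and Rbcn-3B, a member of the rabconnectin complex that helps assemble the pump, at 2.10. All 5 vesicle transporters that use the proton gradient were higher, with a median of 6.14, though prt passed the filter only through neurons. They included VGlut for glutamate at 7.67 and VAChT for acetylcholine at 6.35. Of 16 lysosome genes, 11 were found under their listed symbols and tested, and 1 was higher and 6 lower, with a median of -0.50, though CG17119, among the lower, passed the filter only through whole flies. Npc1a, a sterol exporter, rose by 2.17, and cathD and CtsB1, proteases of the lysosome, stood at -1.02 and -1.08. Of 14 genes of nutrient sensing at the lysosome, 9 were found and tested, and 2 were higher, Rheb at 0.57 and S6k at 0.41, and 1, Thor, was called lower at -1.13. Thor had 0, 19.9 and 796 CPM in neurons (lowest, median and highest), against 29.2, 80.6 and 172 CPM in whole flies, so its median was lower in neurons while its mean of 106.2 ± 203 CPM (SD, n = 37) was above the 80.9 ± 35.65 CPM of whole flies (n = 24). Over all genes 30.2% were higher and 34.3% lower, so 2 of 9 higher is under that share. The values of Rheb and S6k are smaller than the shift of the median with DESeq2's size factors, and their sign under that scaling was not tested.

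Within the mushroom body, Kenyon cells carried less of several pump genes than output neurons. Of 19 pump genes tested in control libraries, Vha100-2 passed the filter on low counts only through output neurons. Of the other 18, 8 were lower, where 12.1% of the 7373 genes that passed in both and 14.3% of all 9168 genes tested were, and 1 was higher, where 16.3% and 17.5% were. The median log2 fold change was -0.46 over those 18 pump genes and 0.18 over the 7373 genes. No pump gene separated the groups without overlap. Pan-neuronal markers were higher in Kenyon cells, 6 of 6, and markers of fat body and photoreceptors were lower, 4 of 4 and 4 of 5 tested; the part of either in the differences below was not tested.

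Vha68-2 and Vha100-2, paralogs typical of whole flies, lay low in Kenyon cells, while VhaM9.7-b, the main paralog of subunit e in whole flies, stood at -0.35 and did not pass (adjusted p = 0.319). Vha68-2 had 2.94, 5.63 and 16.04 CPM in Kenyon cells (lowest, median and highest of 12), against 4.71, 49.6 and 122 CPM in output neurons (of 25). All 12 Kenyon cell libraries lay below the mean of the output neurons, and the log2 fold change was -2.44 ± 0.46 (adjusted p = 3.33e-05). Vha100-2 had 0, 0.277 and 2.35 CPM in Kenyon cells, against 0, 5.36 and 67.7 CPM in output neurons, and no test of it is given. Vha100-5 stayed at 0.302 CPM or less in every control neuron library.

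Genes used by neurons differed less. VhaAC45 had 67.0, 123 and 198 CPM in Kenyon cells, against 49.0, 242 and 614 CPM in output neurons (-1.03 ± 0.25, adjusted p = 0.00107). Vha14-1 had 130, 290 and 385.8 CPM, against 232, 447 and 1114 CPM in output neurons (-0.78 ± 0.19, adjusted p = 0.00126). Both ranges overlapped, with all 12 Kenyon cell libraries below the mean of the output neurons for each gene. VhaM8.9 at -0.70, Vha13 at -0.50, Vha68-1 and Vha36-1 at -0.52 each and VhaM9.7-a at -0.46 were the other genes called lower. Vha68-1 lost its call without V3 control library 3, Vha36-1 without gamma control library 4 or 5, and VhaM9.7-a in 19 of the 37 refits that left out 1 library. Vha26 and Vha55, not called with all libraries, were called lower in 9 refits each, and the number of pump genes called lower, Vha100-2 included, ranged over 7 to 11.

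The proteolipid gene Vha16-1 went the other way. It had 1775, 3266 and 4568 CPM in Kenyon cells, against 828, 2697 and 4052 CPM in output neurons, and 10 of 12 Kenyon cell libraries lay above the mean of the output neurons. Its log2 fold change was 0.57 ± 0.16 (adjusted p = 0.00318). The call was lost without gamma control library 6, alpha/beta control library 2, 4 or 5, or R27G01 control library 1, with fold changes of 0.32 to 0.41. With each class taken relative to its driver's whole flies, the difference was 0.03 and did not pass.

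**Figure D4:**
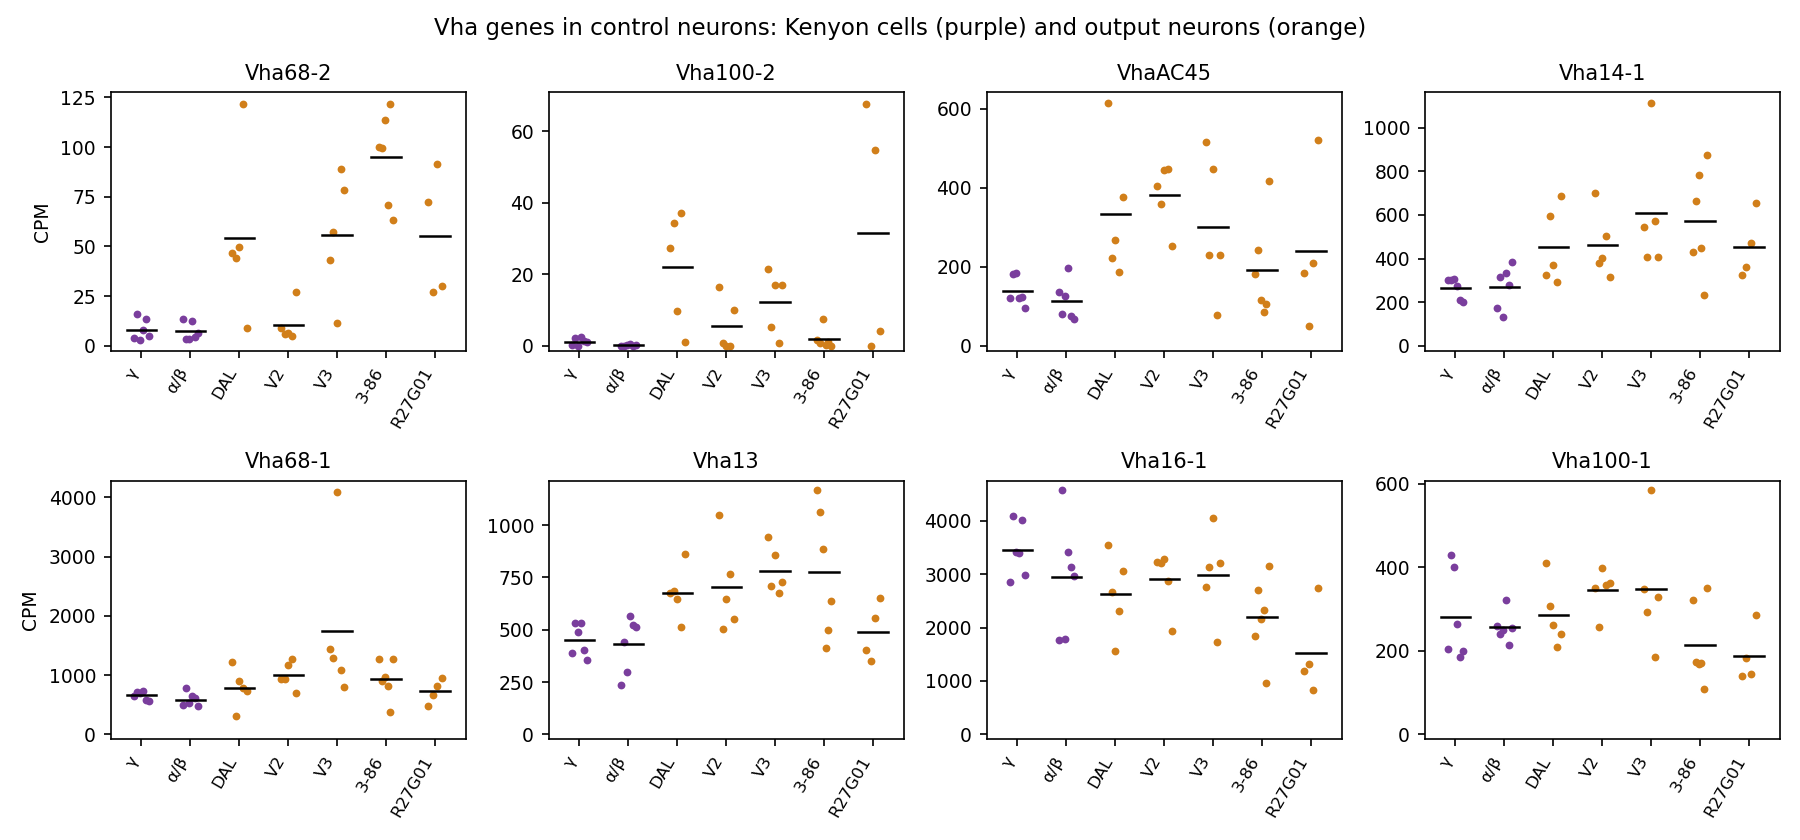
CPM of 8 pump genes in each control neuron library by class, Kenyon cells in purple and output neurons in orange, with the class mean as a bar. Vha68-2 and Vha100-2 lie near 0 in Kenyon cells, and Vha16-1 has its highest class mean in gamma Kenyon cells.

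The 7 classes also differ in cells per library. Across all of them, 8 of 19 pump genes differed by edgeR's F test, where 34.9% of all genes did. The smallest p values belonged to Vha68-2, whose class means ran between 7.31 CPM in alpha/beta Kenyon cells and 94.98 CPM in 3-86 (adjusted p = 2.11e-05), and to VhaM8.9, between 245 CPM in alpha/beta and 776 CPM in V2 (adjusted p = 0.00451). Vha100-2, whose class means ran between 0.17 CPM in alpha/beta and 31.6 CPM in R27G01, is among the 8 and was tested only through its level in output classes. Vha68-1, VhaAC45, Vha14-1, VhaM9.7-b and Vha16-1 also passed. The mean CPM was lowest in alpha/beta Kenyon cells for 12 of the 19 genes, a count that was not made over all genes. No difference between alpha/beta and gamma Kenyon cells passed. In edgeR and in DESeq2 0 of 19 passed, where 0.0218% of all genes passed in edgeR, and 0 had an unadjusted p under 0.05. The 2 with the smallest p were VhaM8.9, with 142, 263 and 352 CPM in alpha/beta, against 235, 346 and 659 CPM in gamma (-0.53 ± 0.31), and Vha100-2, at 2.35 CPM or less in both.

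Among the 5 output neuron classes, 3 of 19 pump genes differed, where 20.9% of all genes did. Vha68-2 had 63.4, 99.9 and 122 CPM in 3-86 (lowest, median and highest of 6) and 8.84, 6.11, 6.60, 4.71 and 27.02 CPM in V2, the class with 12 cells per library (adjusted p = 0.019). The ranges of 3-86 and V2, the classes with the highest and lowest means, did not overlap, and 3.22% of all genes were lower in V2 than in 3-86 in that way. DAL, V3 and R27G01 lay between 8.95 and 122 CPM. Vha68-1 had 1440, 1282, 4095, 1079 and 796 CPM in V3, while DAL and R27G01 stayed at 310 to 1213 CPM (adjusted p = 0.0404), and V3 control library 3 was far above the rest. VhaM9.7-b had 122, 54.2, 22.7, 132 and 61.7 CPM in V2 and 204, 269, 225, 179 and 133 CPM in DAL (adjusted p = 0.0375 over the 5 classes). V2 and DAL had the lowest and highest means, their ranges did not overlap, and 3.03% of all genes were lower in V2 than in DAL without overlap. For Vha68-2 and VhaM9.7-b the pair was picked as the extremes of 5 classes. The shares over all genes keep the pair fixed, so they are too low as a background for such a gap. Without V2 control library 2 or 3 none of the 3 passed, and without V2 control library 5 only 1 did.

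Training left no called change in the pump genes of any class. The design describes trained and control animals as paired, but the labels do not name the pairs, so these tests treat libraries as unpaired. By edgeR's test 0 of 18 or 19 tested genes passed in DAL, V2, V3, 3-86, R27G01, gamma and alpha/beta alike, where 0% of all genes passed, and DESeq2 called 0 of them too. An unadjusted p under 0.05 was reached by 1 pump gene in DAL, 1 in V3 and 2 in gamma, where 1.96%, 1.46% and 5.61% of all genes reached it, and by 0 in the others. The gene in V3 was VhaM9.7-c, which passed the filter only through controls.

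The genes with the smallest p show how far trained and control libraries overlapped. In DAL, VhaPPA1-1 had 160, 290, 305, 132 and 345 CPM in trained libraries, against 800, 253, 450, 372 and 333 CPM in controls (-0.88 ± 0.40, p = 0.0418, adjusted p = 1). Vha13 had 588, 744, 441, 207 and 604 CPM in trained DAL libraries, against 674, 684, 648, 511 and 861 CPM in controls. Trained library 4 was the lowest for both, and the groups overlapped. The deposited sample sheet gives DAL control library 2 a treatment code, O, that differs from the SO of the other DAL controls, and neither code is explained; without it 0 pump genes passed, with VhaPPA1-1 at -1.03.

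In V2, Vha68-2 had 7.44, 5.62, 6.84, 15.8 and 207 CPM in trained libraries, against 8.84, 6.11, 6.60, 4.71 and 27.02 CPM in controls (2.05 ± 1.02, adjusted p = 0.92). Trained library 5 stood above all others, and without it the log2 fold change was -0.25. Vha26 had 1420, 1065, 1062, 1259 and 1362 CPM in trained V2 libraries, against 849, 1194, 1257, 824 and 746 CPM in controls. In V3, VhaM9.7-c had 9.68, 0.192, 0, 2.82 and 0.554 CPM in trained libraries, against 40.1, 9.57, 42.1, 61.0 and 21.4 CPM in controls (a fitted log2 fold change of -3.72 ± 1.56). Only trained library 1 reached the range of the V3 controls for that gene. Vha100-1 in V3 had 247, 250, 264, 222 and 305 CPM in trained libraries, against 349, 294, 584, 184 and 329 CPM in controls.

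In 3-86, Vha68-1 had 412, 914, 807.96 and 227 CPM in trained libraries, against 384, 938 and 1278 CPM (lowest, median and highest of 6) in controls. Vha36-1 had 162, 214, 17.1 and 169 CPM in trained 3-86 libraries, against 125, 293 and 404 CPM in controls. The label of trained library 4, the last of these, is in doubt, since the deposited sample sheet lists the name nearest to it as a control; without it 0 pump genes passed, with Vha68-1 at -0.47 in place of -0.72 and Vha36-1 at -1.19 in place of -0.99. In R27G01, Vha36-1 had 103, 64.9, 131 and 80.1 CPM in trained libraries, against 164, 164, 230 and 235 CPM in controls, with no overlap; 3.08% of all genes tested there were lower without overlap, and the test gave -0.93 ± 0.65 (p = 0.168, adjusted p = 1). VhaM9.7-b had 185, 83.7, 186 and 376 CPM in trained R27G01 libraries, against 140, 71.5, 186 and 126 CPM in controls, with trained library 4 the highest.

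In gamma Kenyon cells, Vha68-2 had 7.38, 12.9 and 39.6 CPM in trained libraries, against 2.94, 6.36 and 16.04 CPM in controls (0.99 ± 0.44, p = 0.0348, adjusted p = 0.796). Vha36-1 had 163, 221 and 292 CPM in trained gamma libraries, against 116, 151 and 224 CPM in controls (0.34 ± 0.16, p = 0.0462). In alpha/beta, VhaM8.9 had 197, 325 and 625.3 CPM in trained libraries, against 142, 263 and 352 CPM in controls, and VhaAC45 had 73.4, 78.9 and 103 CPM, against 67.0, 103 and 198 CPM. All these ranges overlapped.

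Over the 7 classes together, 0 of 20 pump genes passed, where 0.884% of all genes did, and DESeq2 called 0 as well. Vha100-1 had the smallest p, with a log2 fold change of -0.31 ± 0.13 (p = 0.0163, adjusted p = 0.283), and its fitted change was below 0 in 7 of 7 classes, between -0.11 in alpha/beta and -0.54 in 3-86, though in alpha/beta it was 0.01 without trained library 1. It averaged 233 CPM in trained libraries, against 275 CPM in controls. VhaM9.7-a came second, at 0.18 ± 0.11 (p = 0.0979). No class was below 0 with all libraries, but leaving out 1 library gave values down to -0.06 in 3-86, -0.05 in DAL, -0.04 in V3 and -0.09 in gamma. Both genes were picked for their small p in these same libraries, so a sign shared by the classes adds no support. The share of all genes with the same sign in 7 classes was not computed. The training effect differed between classes in 0 of 20 pump genes, where 1.24% of all genes did.

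**Figure D5:**
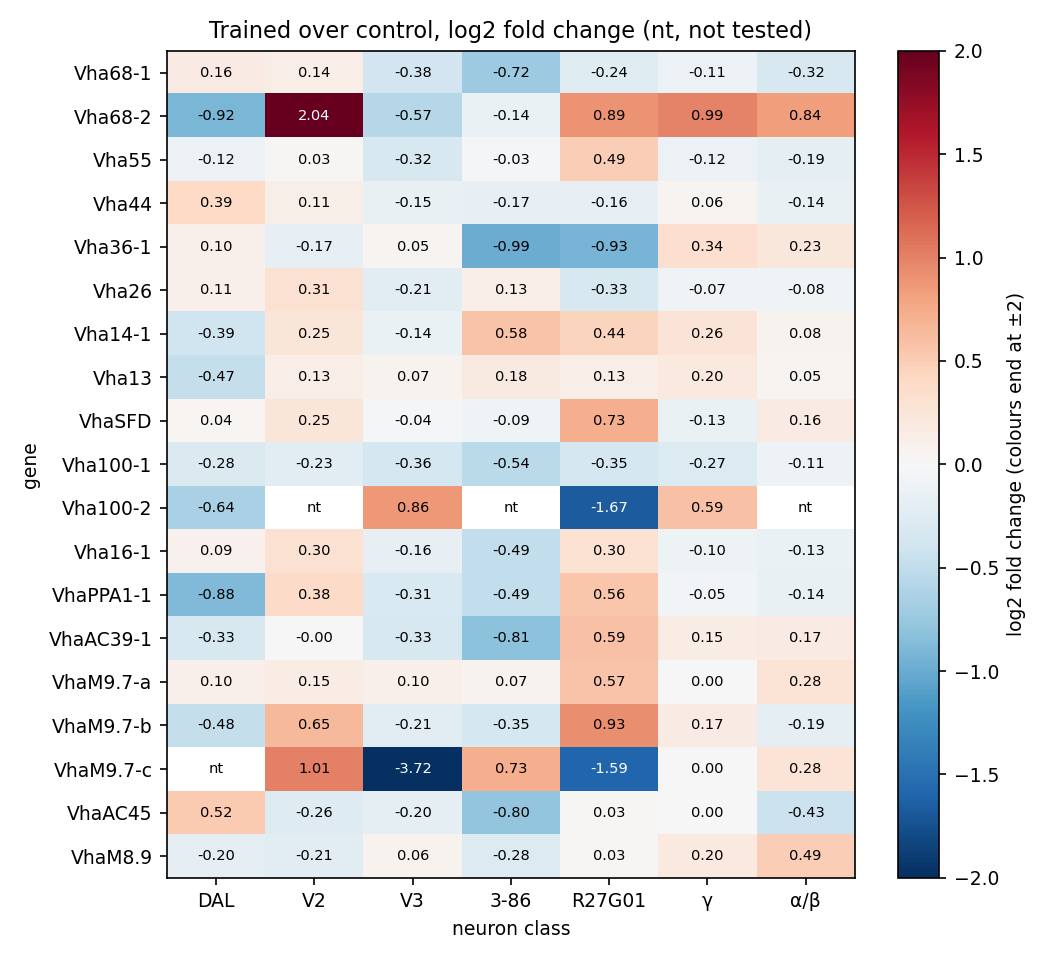
Log2 fold change of trained over control libraries for each pump gene tested in a class, from edgeR, with colours ending at -2 and 2. None passed the adjusted threshold. Vha100-1, picked for the smallest p over the classes together, is at or below -0.11 in all 7. In alpha/beta it is 0.01 without trained library 1. The widest value is -3.72 for VhaM9.7-c in V3.

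Whole flies of the 8 genotypes differed in 18 of 22 pump genes, where 31.5% of all genes did. Vha68-2 had 658, 668, 694 and 649 CPM in 3-86-driver flies and 1071, 966 and 1037 CPM in alpha/beta-driver flies, against 546, 525 and 676 CPM in reporter flies (adjusted p = 2e-07). VhaAC39-1 had 674, 702, 796 and 704 CPM in gamma-driver flies and 488, 438, 452 and 426 CPM in 3-86-driver flies, against 487, 423 and 436 CPM in reporter flies (adjusted p = 2.03e-07). Vha13 had 747, 840 and 874 CPM in V2-driver flies and 532, 541, 525 and 490 CPM in 3-86-driver flies, against 492.96, 531 and 346 CPM in reporter flies (adjusted p = 7.36e-07). Flies of 3-86 thus lay low and apart from the high driver in each. The genes were picked for their small p, and the 2 drivers as the lowest and highest means. How many of all genes separate in this way was not counted.

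Of the 18 genes called, the mean was lowest in 3-86-driver flies for 12 when the 7 driver genotypes were ranked, and highest in alpha/beta-driver flies for 9. Reporter flies stood lowest of all 8 for 6 genes and highest for 6. How often each genotype was lowest or highest over all genes was not counted. The genes highest in reporter flies included Vha68-1, at 100.5 CPM, against 30.8 to 96.0 CPM in the driver genotypes, and the share of Vha68-1 in subunit A was 14.8% ± 1.74 in reporter flies (n = 3), against 5.44% ± 3.23 in driver flies. The median sum of pan-neuronal markers was 439 CPM in reporter flies and 114 to 245 CPM by driver, and that of fat body markers was 73414 CPM in 3-86-driver flies and 10654 CPM in alpha/beta-driver flies. Ovary markers had medians of 22093 CPM in 3-86-driver flies and 3848 CPM in alpha/beta-driver flies. The part of any of these in the genotype differences was not tested.

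In the 2 brains the main paralogs of the neurons led for subunits A and a, but VhaM9.7-a did not lead for e. Vha68-1 had 365 and 282 CPM in the brains and Vha68-2 22.5 and 23.8 CPM, and Vha100-1 had 562 and 668 CPM and Vha100-2 41.2 and 23.8 CPM. VhaM9.7-a had 3.75 and 43.6 CPM in the brains, against 196 CPM or more in every control neuron library, while VhaM9.7-c, with 85.5 and 75.2 CPM, held 69.1% and 53.8% of the reads of subunit e. Both brains lay below every control neuron library for 6 pump genes, VhaM9.7-a, Vha14-1 (44.2 and 28.6 CPM), VhaPPA1-1 (48.0 and 30.8 CPM), Vha13 (87.0 and 107 CPM), Vha16-1 (545 and 714 CPM) and Vha36-1 (87.0 and 94.6 CPM), and above every one for VhaAC45 (801 and 678 CPM). Neither of these counts was made over all genes, so they cannot be read as particular to the pump genes. With 2 brains no test was made.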

How the data were processed

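The authors deposited raw counts of reads per gene symbol for each of 185 sequencing runs. Per the submitters' processing notes, cutadapt, TopHat2, Bowtie, Bowtie2, HTSeq and DESeq2 1.4 were used with genome build BDGP5; the strand setting is not given in the sources used here. The 2 runs of 84 libraries were summed, giving 101 libraries, and groups were taken from the labels. Beside the 3-86 runs named above, the runs of alpha/beta control library 6 also differed by more than counting error (a chi-square of 35.3 for each degree of freedom, against at most 1.04 in the other pairs), and counting them as 2 replicates was an alternative. Compiled tables of the series were not used.

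Counts were tested with edgeR 4.0.16 (R 4.3.3) by the quasi-likelihood F test, with TMM scaling, filterByExpr and robust fitting, and p-values were Benjamini-Hochberg adjusted over every tested gene (threshold 0.05). Control neurons were compared with driver whole flies as the mean over 7 groups each. Each class was fitted alone for training. DESeq2 1.42.0, limma 3.58.1 voom with quality weights, DESeq2's size factors, no low-count filter and leaving out libraries were the alternatives. The edgeR fit was tested on simulated counts. Shares of a subunit's reads were compared by 2-sided permutation tests, and intervals cover counting error only. Exon lengths came from BDGP6, used for lengths and overlaps only.

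Members were named by rule: every main paralog and single-gene subunit, up to 3 genes per direction with the smallest p where genes passed, and 2 where none did. The members and gene lists were chosen with earlier results of these data known. No sequence is shown, since promoter and protein sequences were not used here.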

Additional observations from a re-analysis of the deposited data

Results flagged for a closer look

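In 18 of 272 gene and group combinations of 4 to 6 libraries, 1 library lay apart from the others of its group; at the 95% critical value of Dixon's test used here, chance marks about 1 in 20 groups. DAL trained library 4 was the lowest of its group in summed pump genes, at 4661 CPM where the others had 11850 to 13310, in Vha44, at 246.4 CPM (678 to 732.7), in Vha26, at 218.0 CPM (897.2 to 1171), and in VhaSFD, at 85.21 CPM (338.2 to 437.5). V3 control library 3 was the highest in summed pump genes, at 19960 CPM (9543 to 11820), in Vha68-1, at 4095 CPM (795.7 to 1440), and in Vha14-1, at 1114 CPM (406.5 to 569.7).

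Alpha/beta trained library 2 was the highest of its group in summed pump genes, at 10200 CPM (6260 to 7325), in VhaAC39-1, at 454.3 CPM (221.2 to 277.8), and in VhaM8.9, at 625.3 CPM (197.3 to 325.5), and alpha/beta trained library 1 in VhaSFD, at 268.1 CPM (142.9 to 174.7). R27G01 trained library 1 was the highest in VhaAC39-1, at 545.7 CPM (199.8 to 244.2), and in VhaSFD, at 446.3 CPM (172.7 to 211.2). Vha100-1 was lowest in 3-86 trained library 1, at 90.64 CPM (162.9 to 171.2), and in V2 trained library 1, at 206.6 CPM (314.5 to 347.6). Vha44 was highest in gamma trained library 6, at 849.3 CPM (596.4 to 684). Among whole flies, DAL-driver library 3 was the highest in Vha16-1, at 5758 CPM (4165 to 4396), and in VhaM9.7-a, at 18.02 CPM (2.271 to 3.309).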

How the results depend on the processing

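Of 1058 recomputed counts and shares of pump genes, 1043 kept their value within the limits set, and of 5760 fold changes 5674 kept their direction and call. Neurons exceeded whole flies in 3 pump genes with DESeq2's size factors and in 3 with DESeq2, against 2159 and 2373 of all genes. Vha36-1 turned to -0.26 in both and Vha44 to -0.46 and -0.46. All-class differences covered 13 pump genes without the low-count filter and 14 with DESeq2, against 5624 and 3438 of all genes. Kenyon cells exceeded output neurons in 4 pump genes without the filter, 2 with voom and 0 relative to whole flies of each driver, and VhaM9.7-c turned to 2.18 with voom; leaving out 1 library gave 0 to 1 higher, and 0 to 4 among output classes. The cause was not tested. Every count of pump genes called for training stayed at 0.

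Over all genes, the output classes differed in 1913 genes, 1129 with voom and 3498 without the filter, the 7 classes in 3198 and 5624 without the filter, and Kenyon cells were higher in 1605, 4331 with voom, 2628 without the filter and 643 relative to whole flies. Alpha/beta differed from gamma in 2 genes and 94 with DESeq2, and neurons were lower in 3620 and 5538 with DESeq2. Training over 7 classes gave 87 genes, 238 without the mixed 3-86 libraries and 1221 with DESeq2, and class by training 122, 275, 74 without 3-86 trained library 4 and 428 with DESeq2. Within classes DESeq2 called 55 genes in DAL, 95 in V2, 20 in V3, 105 in 3-86, 211 in R27G01, 6 in gamma and 2 in alpha/beta, where edgeR called 0; 1 fit of all 14 neuron groups called 2 in DAL, 96 in 3-86 and 427 in R27G01.

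Whole flies share replicate numbers in the labels; a fit with the replicate block called 18 pump genes and 2372 of all genes, against 2998 without it. The series' design describes paired trained and control animals, but the labels name no pairs, so the training tests treat the libraries as unpaired. In gamma, trained and control titles share full codes of unstated meaning; with that code as a term 0 pump genes and 1 of all genes passed, and Vha100-1 stood at -0.24 in place of -0.27. The first digits of the code could not be fitted in gamma, nor the sheet's grouping letter in 3-86 and R27G01; leaving out 3-86 trained library 4, the full code and the grouping letter were chosen after seeing the data. In fits of neurons with whole flies and of all neuron groups, 39 and 44 libraries were left out in turn, not all. Depth limits the rare members, most of which had too few reads to test.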
